A study of Mus musculus with 11 samples.

Results

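The 8 genes described here, which act on the lesions made by activation-induced deaminase (AID), were followed through RNA sequencing of mouse germinal center B cells and memory B cells. They were chosen by name and function, with earlier results of these data known, and no threshold on their levels was used: Ung, Apex1 and Apex2 of uracil base excision, Msh6 and Exo1 of mismatch repair, the translesion polymerase gene Polh, the break repair gene Trp53bp1, and the transcription elongation gene Supt5. All 8 were found among the 48795 genes of the table and all 8 passed the filter on low values in both comparisons. Light zone (LZ) B cells were sorted from the spleens of 4 Myc_WT_ and 4 Myc_VD_ mice, and memory B cells (MBCs) from 3 of the same Myc_WT_ mice, giving 11 libraries of separate sorts from 8 mice. All mice were females of 8 to 12 weeks, and all had received sheep red blood cells (SRBCs) intravenously and were analysed 10 days later. Myc_VD_ mice carry the V394D change in the endogenous Myc gene, so that MYC in every cell type that makes it is the form that cannot bind MIZ1, while binding to its partner MAX is retained. LZ B cells were gated as B220+ CD138neg IgDneg CD38neg Fas+ cells with high CD86 and low CXCR4, and MBCs as B220+ CD138neg IgDneg CD38+ CD273+ cells. No MBC library of Myc_VD_ mice was analysed here, and genotype was compared within LZ B cells and cell type within Myc_WT_.

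AID converts cytosine to uracil in the transcribed variable and switch regions of immunoglobulin genes, mainly while germinal center B cells divide in the dark zone. The uracil can be copied as it stands, cut out by the glycosylase UNG and opened by APE nucleases, or seen as a U:G mismatch by the sensor that contains MSH6, after which the exonuclease EXO1 resects the strand and the error-prone polymerase eta refills it, which spreads mutations to A:T pairs. Breaks in switch regions are protected from resection by 53BP1 and joined during class switching, and the elongation factor SPT5 accompanies RNA polymerase and AID over their targets.

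The levels are given in TPM, transcript abundances that the authors corrected for gene length and scaled to a fixed total in each library, so that genes can be set beside each other. In Myc_WT_ LZ B cells Msh6 had the highest mean, 67.1 ± 12.1 TPM (SD, n = 4), and Apex2 the lowest, 8.61 ± 0.886 TPM (SD, n = 4). Between them stood, in order of mean TPM, Polh (64.0), Apex1 (44.4), Ung (37.4), Supt5 (31.5), Exo1 (19.6) and Trp53bp1 (16.5). The libraries of neighbours in this order overlapped in every case but the last, since each library of Trp53bp1 was above each of Apex2. In MBCs the order was another one: Trp53bp1 came first with 38.1 ± 10.9 TPM (SD, n = 3) and Polh last with 8.75 ± 7.59 TPM (SD, n = 3). There all neighbours in the order overlapped. TPM hold no read depth, so no counting error can be attached to a value and the spread between mice is the only error available.

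**Figure D1:**
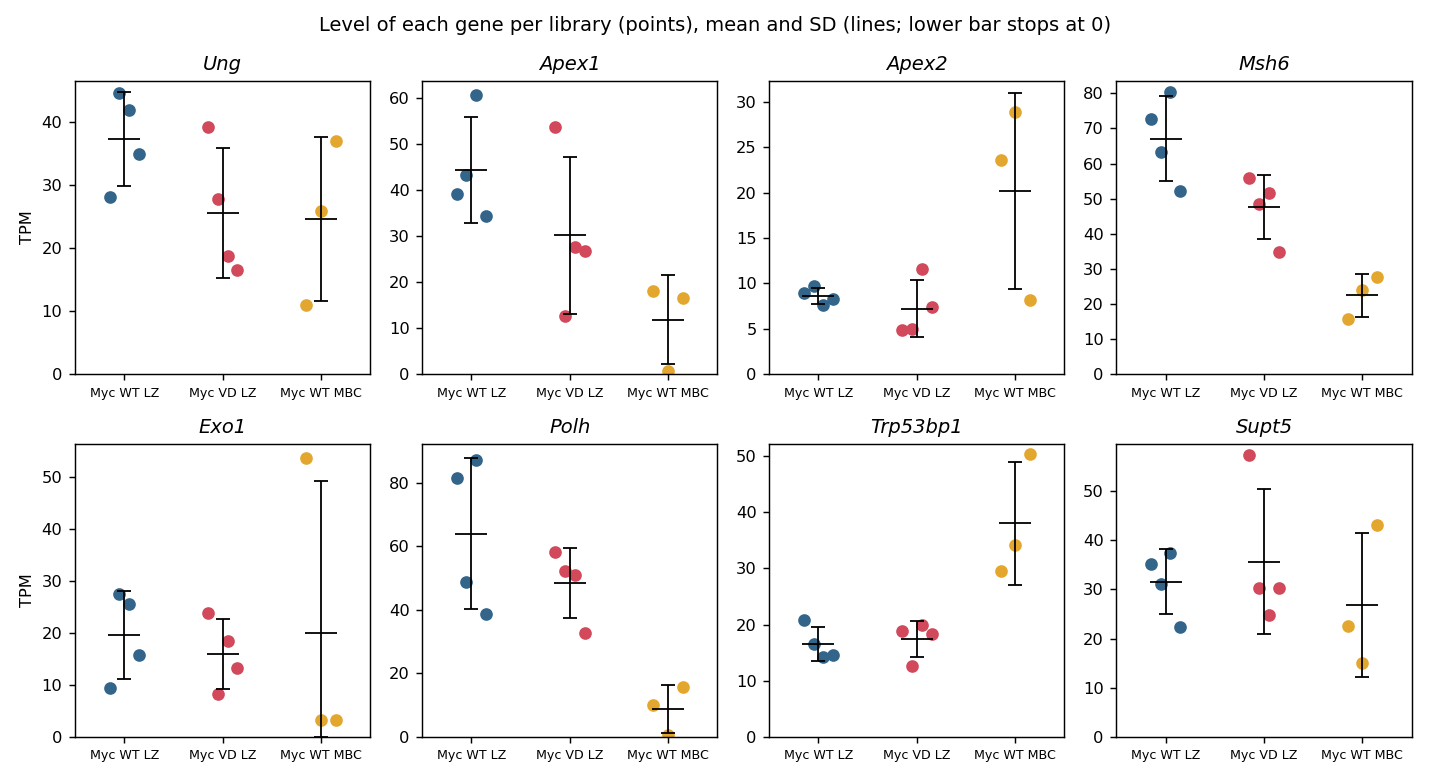
TPM of the 8 genes (vertical axes, linear, one scale per gene) in Myc_WT_ LZ, Myc_VD_ LZ and Myc_WT_ MBC libraries, with each library as a point and the mean and SD as lines. Msh6, Apex1 and Polh lay lower in every MBC library than in every Myc_WT_ LZ library, Trp53bp1 lay higher, and for all 8 genes the Myc_VD_ and Myc_WT_ libraries overlapped.

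The identity of the sorted cells was read from marker genes. Among 10 genes of memory and naive B cells, which include those of the CD38 and CD273 gates, 8 were higher in MBCs than in Myc_WT_ LZ B cells, while 4 of 10 light zone genes were lower, and of 20 proliferation genes 16 were lower and 0 higher (limma with Benjamini-Hochberg adjustment at 0.05). The summed level of the 20 proliferation genes ran from 1915 to 3525 TPM in Myc_WT_ LZ, from 1558 to 2886 TPM in Myc_VD_ LZ and from 523 to 851 TPM in MBCs. Of 9 dark zone genes, which include Polh itself, 6 were lower in MBCs and 1, Foxp1, was higher, and of 6 genes of B cells in general 3 were higher and 0 lower. Markers of other cells were uneven: 6 erythroid genes summed to 116 to 226 TPM in Myc_WT_ LZ and to 343, 410, 352 and 71.9 TPM in LZ of Myc_VD_ mice 5, 6, 7 and 8. In MBCs of mice 1, 3 and 4 they summed to 7.6, 6713 and 53.4 TPM. Between genotypes 0 of the 6 passed the adjusted threshold, and 3 (50%) had an unadjusted p under 0.05 in limma, beside 16.9% of all genes. The sum of 7 myeloid genes was 7.69 to 18.7 TPM in Myc_WT_ LZ, 10.9 to 18.2 TPM in Myc_VD_ LZ and 36.4 to 184 TPM in MBCs (2 of the 7 were at 0 in every MBC library). Of the 5 myeloid genes tested 2 rose in MBCs, Csf1r of macrophages (means of 0.0425 and 10.7 TPM, adjusted p = 0.00652) and Itgam (0.0625 and 6.05 TPM, adjusted p = 0.0137), while 0 of 5 erythroid genes tested passed. The 6 T cell genes summed to at most 14.4 TPM. The sum of 5 plasma cell genes was 229 to 381 TPM in Myc_WT_ LZ, 134 to 221 TPM in Myc_VD_ LZ and 193 to 402 TPM in MBCs. These sums were not rescaled for the share of ribosomal RNA, given below, which was larger in most Myc_VD_ LZ libraries. Of the 4 plasma cell genes tested 0 passed the adjusted threshold in either comparison. Jchain, of the antibody joining chain, was lower in every Myc_VD_ library than in every Myc_WT_ LZ library (means of 232 and 109 TPM, adjusted p = 0.122), as were 9.16% of all genes. The part of these other cells in the differences below was not tested. Ribosomal RNA took 35.7 to 44.5% of TPM in Myc_WT_ LZ, 44.1 to 61.3% in Myc_VD_ LZ and 36.1 to 37.5% in MBCs, which leaves less TPM for other genes in Myc_VD_. The number of genes above 0 TPM also differed, with 15460 to 19537 in Myc_WT_ LZ and 13169 to 16421 in Myc_VD_ LZ. In MBCs of mice 1, 3 and 4 it was 12983, 11527 and 16040, that of mouse 3 being the lowest of all libraries. Its part in the differences below was not tested.

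The start regions of 3 of the genes are shown because Msh6 and Polh are those called lower in MBCs below, and because Apex1 is the one with a match to CACGTG, the E-box letters bound by MYC with MAX. The windows of RefSeq (GRCm38.p6) hold 250 bases before the start and matched 6 of the 8 genes: Ung, Apex1, Msh6, Polh, Trp53bp1 and Supt5. Only the stretch free of annotated exons (GENCODE M21) is printed, 5′ to 3′ on the strand of the gene, with matches to CACGTG and CCAAT (or ATTGG, its reverse complement) in capitals.
Apex1 (chr14:50924894-50924948, forward strand): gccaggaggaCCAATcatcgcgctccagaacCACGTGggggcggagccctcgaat
Msh6 (chr17:87974800-87975049, forward strand): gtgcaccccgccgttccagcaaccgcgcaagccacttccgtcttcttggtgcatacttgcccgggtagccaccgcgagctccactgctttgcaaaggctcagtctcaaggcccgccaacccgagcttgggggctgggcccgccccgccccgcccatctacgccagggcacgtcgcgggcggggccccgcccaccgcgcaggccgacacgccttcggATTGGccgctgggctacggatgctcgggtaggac
Polh (chr17:46202646-46202781, reverse strand): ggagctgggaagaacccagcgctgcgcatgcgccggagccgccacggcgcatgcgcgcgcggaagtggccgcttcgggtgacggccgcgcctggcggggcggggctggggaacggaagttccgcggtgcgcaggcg
In Apex1 the E-box letters began 24 bases before the start and a CCAAT box began 45 bases before it, in the stretch that separates Apex1 from Osgep, a tRNA modification gene whose start is 75 bases away and points the other way. In Msh6 the inverted CCAAT box began 34 bases before the start. CACGTG occurs in 6.02% of all 32851 windows of this length and CCAAT in 33.8%, both strands counted; no match to the E2F forms TTTCCCGC (0.895% of windows) and TTTGGCGC (0.417%) was found in the 6 windows. Polh likewise shares its start region with a gene pointing away, Xpo5 of microRNA precursor export, at 137 bases. Msh6 (87975062 to 87990892, forward strand) and Polh (46171355 to 46202645, reverse strand) both lie on chromosome 17. The matches describe letters only, and no binding was measured here.

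The first comparison asked whether the loss of MYC binding to MIZ1 in Myc_VD_ mice came with other levels of these genes in LZ B cells. None of the 8 genes passed the adjusted threshold (limma with Benjamini-Hochberg adjustment), and 0 had an unadjusted p under 0.05. Among all 12869 genes tested 0.0466% passed, in either direction, and 16.9% had an unadjusted p under 0.05. Negative log2 differences were found for 6 of the 8 and positive ones for 2, where 73.7% of all genes were negative. The median of the 8 was -0.32 and that of all genes -0.31. No gene separated the genotypes, where 9.16% of all genes were lower in Myc_VD_ without overlap.

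Of the excision genes, Ung, the main glycosylase for uracil made by AID, stood at 28.05, 44.64, 41.92 and 34.86 TPM in Myc_WT_ LZ and at 39.21, 27.77, 18.81 and 16.58 TPM in Myc_VD_ LZ. Of the 4 Myc_VD_ libraries 3 were thus below the lowest Myc_WT_ library and the fourth was within the Myc_WT_ range. The log2 difference was -0.59 (SE 0.30, adjusted p = 0.347), or -0.28 relative to all genes. Apex1, the main nuclease that opens abasic sites, had 39.11, 43.35, 60.74 and 34.42 TPM in Myc_WT_ and 53.67, 12.66, 27.56 and 26.81 TPM in Myc_VD_ LZ. Again 3 Myc_VD_ libraries were below all Myc_WT_ libraries and mouse 5 was not, with a log2 difference of -0.68 (SE 0.37, adjusted p = 0.381). Without mouse 5 it was -1.0 and without mouse 6 it was -0.34. Apex2, a second enzyme of this kind that germinal center B cells also express, had 8.92, 9.66, 7.59 and 8.27 TPM against 4.85, 4.96, 11.63 and 7.43 TPM, a wider spread in Myc_VD_ that enclosed the Myc_WT_ libraries (log2 difference -0.30, SE 0.33, adjusted p = 0.672).

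Msh6, of the sensor that reads the U:G mismatch, had 72.66, 63.31, 80.29 and 52.21 TPM in Myc_WT_ and 55.99, 48.47, 51.55 and 34.8 TPM in Myc_VD_ LZ. Every Myc_VD_ library was below the Myc_WT_ median, and 3 of the 4 were below the lowest Myc_WT_ library. Msh6 had the lowest adjusted p of the 8 genes in this comparison, 0.311, with a log2 difference of -0.49 (SE 0.23, 95% interval -0.99 to 0.02), or -0.18 relative to all genes, and an exact permutation p of 0.0571. Exo1, the exonuclease of this branch, varied widely within both genotypes, between 9.38 and 27.46 TPM without the mutation, and between 8.3 and 23.76 TPM with it (log2 difference -0.26, SE 0.40, adjusted p = 0.766). Polh, which encodes polymerase eta, lay between 38.65 and 86.98 TPM in Myc_WT_ libraries and between 32.74 and 58.04 TPM in those of Myc_VD_, with a log2 difference of -0.35 (SE 0.30, adjusted p = 0.579), close to that of all genes.

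The 2 genes outside excision, mismatch repair and translesion synthesis had small positive differences. Trp53bp1, which encodes 53BP1, had 20.79, 16.48, 14.2 and 14.54 TPM against 18.77, 12.68, 20 and 18.35 TPM in Myc_VD_ (log2 difference 0.07, SE 0.26, 95% interval -0.50 to 0.64). Supt5 had 35.13, 31.15, 37.46 and 22.43 TPM in Myc_WT_ and 57.42, 30.31, 24.73 and 30.26 TPM in Myc_VD_ LZ. Its log2 difference of 0.12 (SE 0.29, adjusted p = 0.863) rested on mouse 5, without which it was -0.13, and it was -0.03 without Myc_WT_ mouse 4. The intervals of these differences leave room for changes in either direction, and the 8 genes are not shown to be alike in both genotypes.

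The scale of the comparison matters for the signs. Ribosomal RNA took a larger share in Myc_VD_, and with its genes removed and the rest rescaled the log2 differences were -0.29 for Ung, -0.38 for Apex1, -0.02 for Apex2, -0.18 for Msh6, 0.03 for Exo1 and -0.04 for Polh, all closer to 0, and 0.38 for Trp53bp1 and 0.43 for Supt5, both further from it. Rescaling by the median ratio instead moved the median of all genes from -0.31 to -0.01 and left 4 negative and 4 positive differences among the 8 genes. Apex2 then stood at 0.005, Exo1 at 0.05 and Polh at -0.02, with Msh6 at -0.16, Ung at -0.26, Apex1 at -0.35, Trp53bp1 at 0.39 and Supt5 at 0.45. Under neither scaling did any of the 8 genes pass the adjusted threshold. Of the other 69 genes tested of uracil excision, mismatch repair, translesion synthesis, break repair and AID targeting, 0 passed the adjusted threshold, and 18 of the 69 (26.1%) had p under 0.05 before adjustment, beside 16.9% of all genes. The median of their log2 differences was -0.28. The gene nearest to the threshold among them, named after its values were seen, was Supt4a, which encodes the SPT4 partner of SPT5: its mean was 280 TPM in Myc_WT_ and 105 TPM in Myc_VD_ (log2 difference -1.42, SE 0.24, adjusted p = 0.0634), against 31.5 and 35.7 TPM for Supt5.

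**Figure D2:**
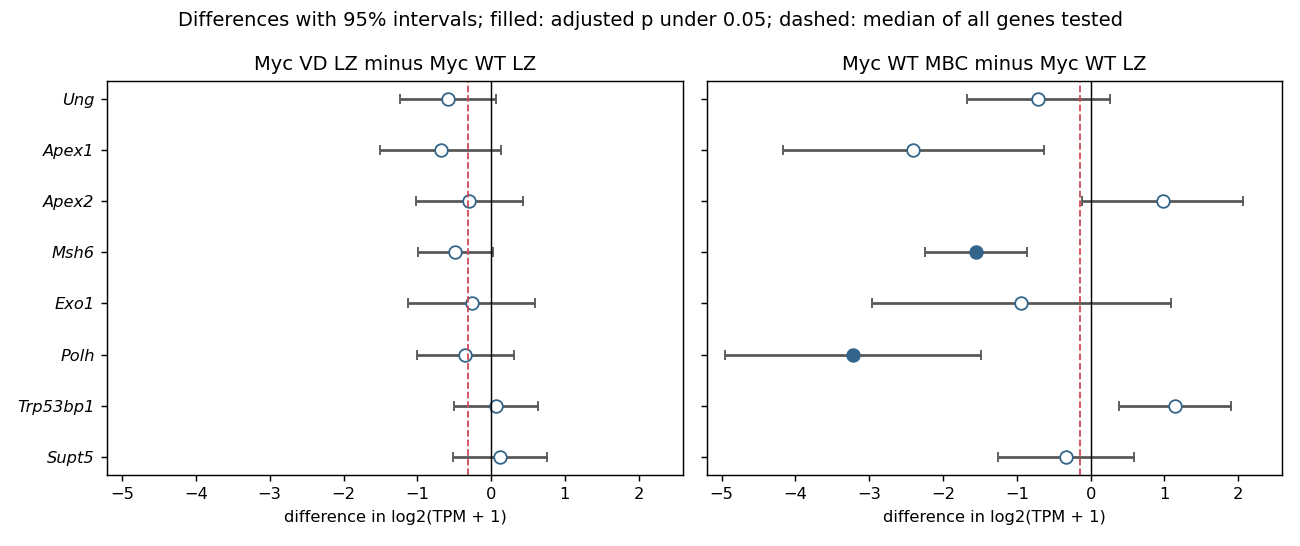
Differences in log2(TPM + 1) of the 8 genes (horizontal axes) with their 95% intervals, Myc_VD_ LZ minus Myc_WT_ LZ on the left and Myc_WT_ MBC minus Myc_WT_ LZ on the right, filled points having an adjusted p under 0.05. On the left the points lie around the dashed median of all genes (-0.31), while on the right Msh6 (-1.55) and Polh (-3.22) are filled and the intervals of Apex1 and Trp53bp1 also leave out 0.

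The second comparison set MBCs against LZ B cells of Myc_WT_ mice and asked how the genes stood in memory cells beside cells of the germinal center. Polh and Msh6, 2 of the 8 genes, fell in MBCs, against 5.04% of the 13245 genes tested, and 0 rose, against 4.17% of genes (limma with Benjamini-Hochberg adjustment). Before adjustment 4 of the 8 had p under 0.05, beside 27.1% of all genes. The 8 genes had a median of -0.82 on the log2 scale and all genes one of -0.14. Apex1, Msh6 and Polh, 3 of the 8, were lower in every MBC library than in every LZ library, as were 14.4% of genes, and Trp53bp1 was higher without overlap, as were 11.8% of genes. For these 4 the exact permutation p over the 35 groupings was 0.0286, the smallest that 3 libraries against 4 allow. In bulk libraries, fewer expressing cells and less RNA per cell cannot be told apart.

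Polh had 81.59, 48.76, 86.98 and 38.65 TPM in LZ B cells and 10.17, 0.55 and 15.54 TPM in MBCs of mice 1, 3 and 4. The highest MBC library was below the lowest LZ library, and the MBCs of mouse 3 were close to 0. The log2 difference was -3.22 (SE 0.76, adjusted p = 0.034), 9.34-fold lower on the log2(TPM + 1) scale. Without the MBCs of mouse 3, the library with the high erythroid sum and the fewest genes above 0, it was -2.18 (SE 0.40, adjusted p = 0.0156), 4.53-fold lower. This was the largest of the 8 differences, with a 95% interval from -4.96 to -1.49.

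Msh6 had 72.66, 63.31, 80.29 and 52.21 TPM in LZ B cells and 15.78, 24.05 and 27.59 TPM in MBCs. All 3 MBC values lay below the LZ range, and the SE was the smallest among the 8 genes, with a log2 difference of -1.55 (SE 0.31, adjusted p = 0.0189), 2.94-fold lower. With the mouse as a replicate block, possible for mice 1, 3 and 4, the log2 differences were -1.58 for Msh6 and -3.32 for Polh and neither passed any longer (adjusted p = 0.142 and 0.0729). Leaving out the LZ library of mouse 1, 2 or 3 also lost the call of Msh6 (adjusted p = 0.0703, 0.0744 and 0.0787), and leaving out the LZ library of mouse 1, 2, 3 or 4 did so for Polh (adjusted p = 0.103, 0.0901, 0.112 and 0.0707). In each of these fits both genes kept their direction, with log2 differences from -1.71 (without MBC mouse 4) to -1.33 (without MBC mouse 1) for Msh6 and from -3.89 (without MBC mouse 4) to -2.18 (without MBC mouse 3) for Polh over all libraries left out in turn.

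Polh and Msh6 were highest in the libraries with the highest proliferation sums. Across the 11 libraries the genes most alike to Polh in log2(TPM + 1) were Rrm1, the large subunit of ribonucleotide reductase (r = 0.99), and Ccnb2, a mitotic cyclin (r = 0.987), and the genes most alike to Msh6 were Dut, which removes dUTP (r = 0.986), and Rps2, a ribosomal protein gene (r = 0.983), out of 9222 genes compared. Apex1 was most like Dpm2 (r = 0.98) and Swi5 (r = 0.978), Trp53bp1 most like Gvin1 (r = 0.955) and Adam19 (r = 0.952), and Apex2 most like Nudt6 (r = 0.956) and Hyi (r = 0.954). For Ung these were Clec12a (r = 0.936) and Lrrc47 (r = 0.928), for Exo1 Gm45854 (r = 0.942) and Wdr76 (r = 0.934), and for Supt5 Keap1 (r = 0.926) and Efhd2 (r = 0.924). These correlations describe 11 libraries of 3 groups, in which mice 1, 3 and 4 each gave a pair, and all genes of a library share its scaling. The part of proliferation in the differences was not tested.

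**Figure D3:**
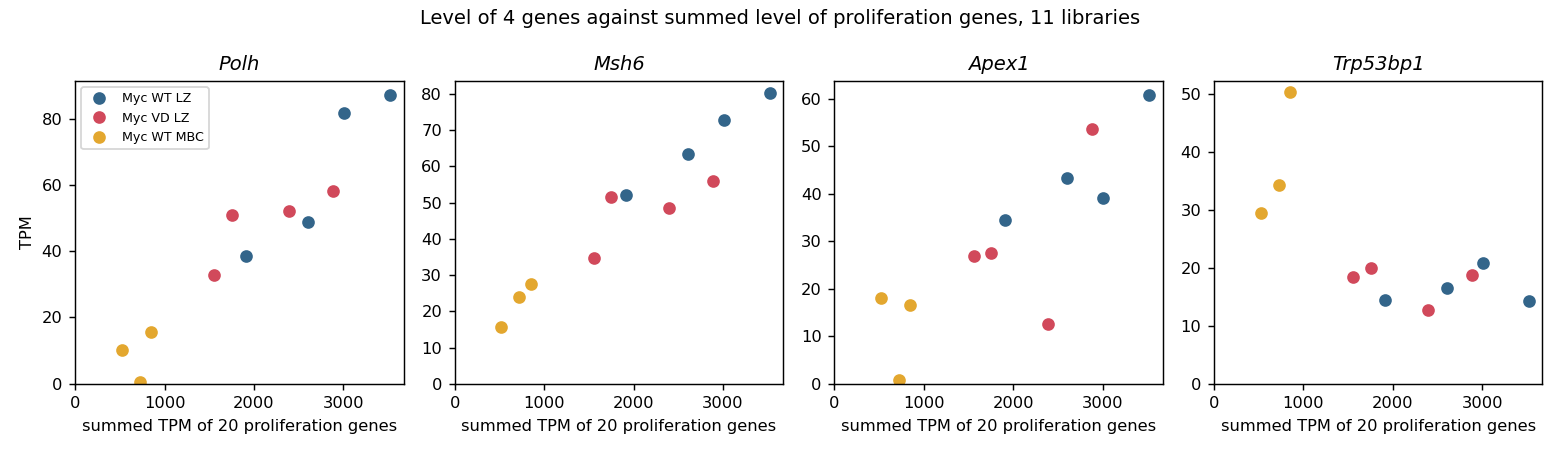
TPM of Polh, Msh6, Apex1 and Trp53bp1 (vertical axes) against the summed TPM of 20 proliferation genes (horizontal axes) in 11 libraries, coloured by group. The MBC libraries (523 to 851 TPM summed) sit at the lower left for Polh and Msh6 and at the upper left for Trp53bp1, apart from the LZ libraries of both genotypes (1558 to 3525 TPM summed).

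Of the other mismatch gene, Exo1, the LZ libraries had 9.38, 27.46, 25.59 and 15.81 TPM and the MBC libraries 53.74, 3.24 and 3.24 TPM. The MBCs of mouse 1 held the highest value of all 11 libraries and those of mice 3 and 4 the lowest, so that the means were alike (20.1 and 19.6 TPM) while the difference of the logs was -0.94 (SE 0.89, adjusted p = 0.538). Without the MBCs of mouse 1 it was -2.17 (adjusted p = 0.0409), and without those of mouse 3 or of mouse 4 it was -0.32 (adjusted p = 0.831 and 0.841).

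None of the 3 excision genes passed the adjusted threshold in MBCs. Ung had 28.05, 44.64, 41.92 and 34.86 TPM in LZ B cells and 11.03, 25.95 and 36.96 TPM in MBCs, overlapping, with a log2 difference of -0.71 (SE 0.43, adjusted p = 0.324). This was -0.24 without the MBCs of mouse 1 and -1.07 without those of mouse 4. Apex1 had 39.11, 43.35, 60.74 and 34.42 TPM in LZ B cells and 18.13, 0.77 and 16.64 TPM in MBCs. Every MBC library was lower, that of mouse 3 by far the most, and the log2 difference of -2.40 did not pass (SE 0.78, adjusted p = 0.0887), while without the MBCs of mouse 3 it was -1.27 (adjusted p = 0.0337). With the mouse as a replicate block the adjusted p was 0.183. Apex2 had 8.92, 9.66, 7.59 and 8.27 TPM in LZ B cells and 23.54, 28.86 and 8.12 TPM in MBCs, high in mice 1 and 3 and within the LZ range in mouse 4. Its log2 difference was 0.98 (SE 0.48, adjusted p = 0.233), 1.50 without mouse 4 (adjusted p = 0.0223) and 0.64 without mouse 3.

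The low Apex1 and high Apex2 of the MBCs of mouse 3 coincided with high values of Pip4p1 and Alas2, the genes on the other strand that share the most exonic bases with them. Apex1 (chromosome 14, 50924968 to 50927139, forward strand, GRCm38, GENCODE M21) shares 877 exonic bases with Pip4p1, a lipid phosphatase gene, which had 158.59 TPM in that library and 19.65 to 46.88 TPM in the other 10. Apex2 (chromosome X, 150519519 to 150589868, reverse strand) shares 311 exonic bases with Alas2, the heme synthesis gene of erythroid cells, which had 42.86 TPM there and at most 17.67 TPM elsewhere. Other neighbours on the opposite strand were low in that library: Osgep, with the start next to that of Apex1, had 1.98 TPM, its lowest value, and Pfkfb1, which shares 123 exonic bases with Apex2, was listed at 0, as it was in the MBCs of mouse 1. The same library held the 6713 TPM of erythroid markers given above. The MBCs of mouse 1, with 23.54 TPM of Apex2, had 2.39 TPM of Alas2 and the lowest erythroid sum of all libraries. Reads were assigned by strand according to the study's methods, and the part of the shared bases in these values was not tested.

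**Figure D4:**
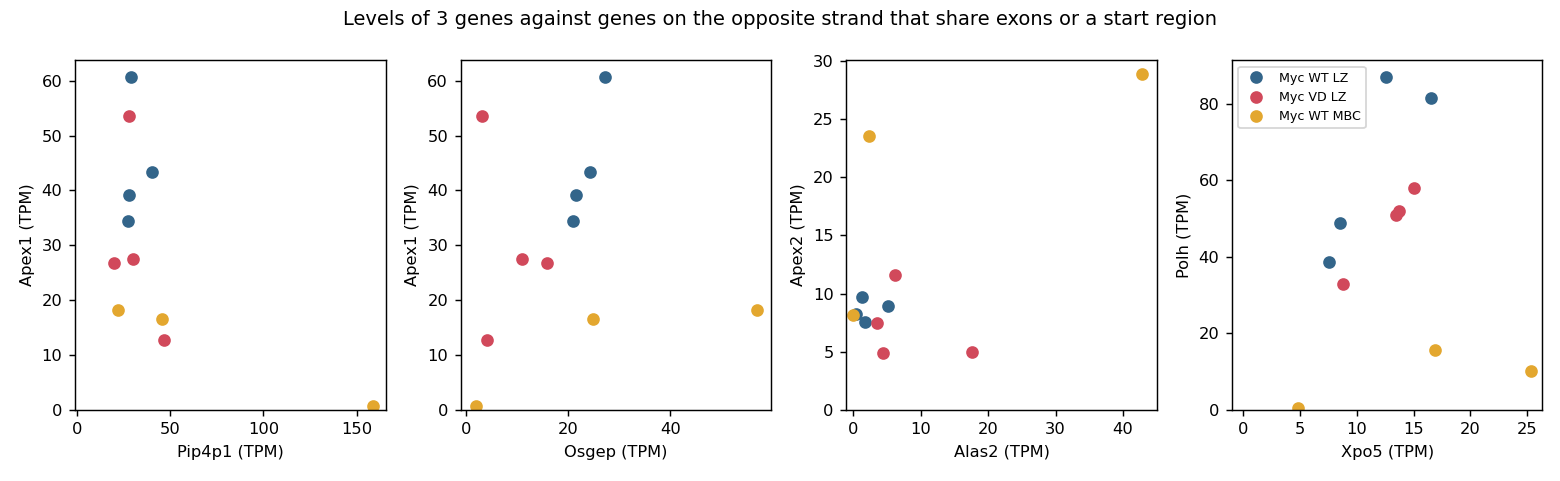
TPM of Apex1, Apex2 and Polh (vertical axes) against TPM of a gene on the opposite strand that shares exons (Pip4p1, Alas2) or the start region (Osgep, Xpo5) with it (horizontal axes), in 11 libraries coloured by group. A single MBC library, that of mouse 3, sits apart with 158.59 TPM of Pip4p1 beside 0.77 TPM of Apex1 and with 42.86 TPM of Alas2 beside 28.86 TPM of Apex2.

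Trp53bp1 was the gene with higher values in every MBC library. It had 20.79, 16.48, 14.2 and 14.54 TPM in LZ B cells and 29.54, 34.26 and 50.35 TPM in MBCs, without overlap and with a log2 difference of 1.14 (SE 0.34, 95% interval 0.38 to 1.90), just short of the threshold at an adjusted p of 0.0677. It passed after rescaling by the median ratio (1.16, adjusted p = 0.048) and in 1 fit of all 3 groups (adjusted p = 0.0394). With the mouse as a replicate block it did not (SE 0.56, adjusted p = 0.342), nor with any library left out, where the adjusted p lay between 0.0519 and 0.187. The gene shares 2130 exonic bases with Tubgcp4 on the other strand, which had 37.75 to 57.65 TPM in LZ B cells and 60.14, 82.15 and 31.68 TPM in MBCs. Supt5 had 35.13, 31.15, 37.46 and 22.43 TPM in LZ B cells and 22.47, 14.95 and 43.09 TPM in MBCs, overlapping on both sides (log2 difference -0.33, SE 0.41, adjusted p = 0.644). It was at 0.01 without the MBCs of mouse 3 and at -0.73 without those of mouse 4. Supt5 shares 433 exonic bases with Gm44709 on the other strand. Gm44709 had 12 to 23.29 TPM in Myc_WT_ LZ B cells and 0, 6.71 and 4.52 TPM in MBCs, and the part of the shared bases was not tested.

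Among the wider branches, 11 of 70 other repair and targeting genes fell in MBCs and 0 rose, where 5.04% of all genes fell and 4.17% rose, and 27 of the 70 (38.6%) had p under 0.05 before adjustment, beside 27.1% of all genes. The 70 genes had a median log2 difference of -0.58. In uracil excision 3 of 13 genes fell: Lig1, a replicative ligase (-2.61, SE 0.44), Mbd4, a glycosylase for mismatched thymine and uracil (-1.75, SE 0.33), and Pcna, the replication clamp (-1.73, SE 0.21). In mismatch repair 5 of 13 fell, Msh6 and Pcna included, the others being Pold1 of polymerase delta (-1.94, SE 0.37), Rpa1 of the single-strand binding complex (-1.62, SE 0.39) and Rfc1 of the clamp loader (-1.18, SE 0.27). In translesion synthesis 3 of 11 fell: Polh, Rev1, a dCMP transferase (-1.54, SE 0.40), and Usp1, which removes ubiquitin from PCNA (-1.67, SE 0.42). Many of these serve replication as well as repair. In break repair 1 of 21 fell, H2afx, the H2AX histone gene, from a mean of 498 TPM to 35.3 TPM (-3.88, SE 0.45), and among the AID targeting and transcription genes 2 of 22 fell, among them Gadd45a (-1.93, SE 0.46). Pcna is counted in both lists that hold it, and no list was tested against the other genes. With the mouse as a replicate block 4 of the 70 fell, where 0.897% of all genes did. Without the LZ library of mouse 1, 2 or 3 also 4 fell in each case, where 1.31%, 1.04% and 1.03% of all genes did.

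**Figure D5:**
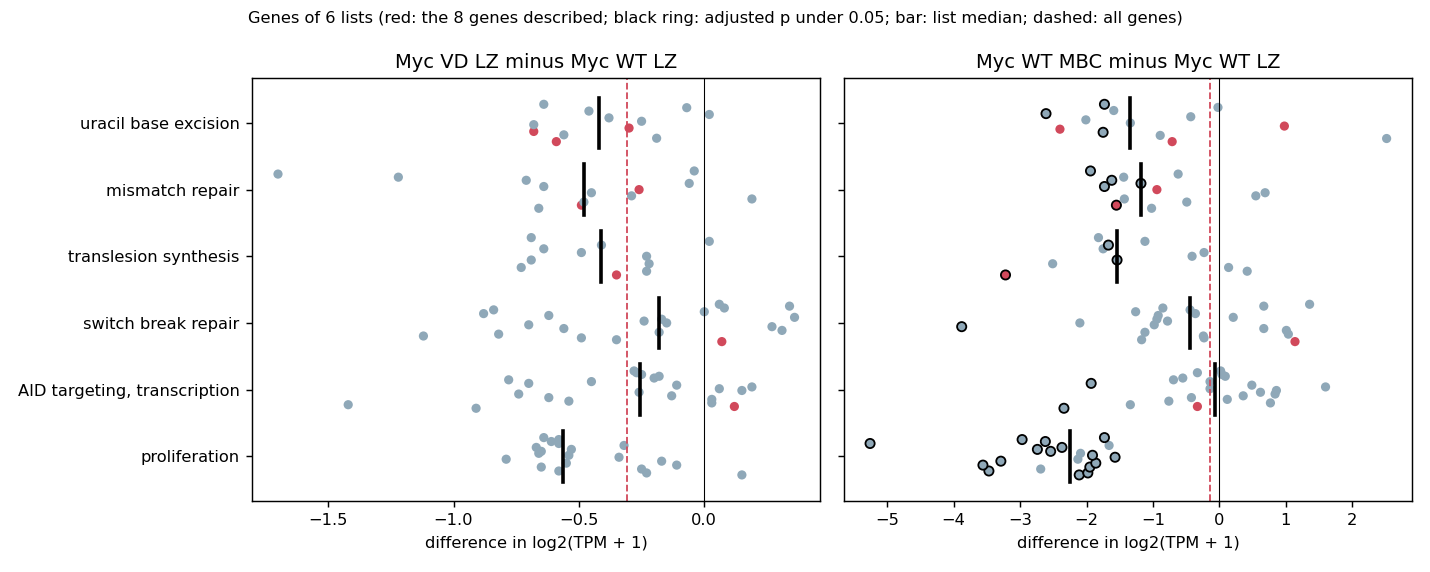
Differences in log2(TPM + 1) (horizontal axes) of the genes of 5 repair and targeting lists and of 20 proliferation genes, Myc_VD_ LZ minus Myc_WT_ LZ on the left and MBC minus Myc_WT_ LZ on the right; red points are the 8 genes described, black rings mark an adjusted p under 0.05, bars the list medians and the dashed line the median of all genes. No ring appears on the left, and on the right the rings lie below 0, 16 of them among the proliferation genes.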

How the data were processed

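RNA of 11 sorted B cell libraries was analysed. The authors aligned reads with STAR 2.5.2a and quantified genes of GRCm38 with RSEM 1.3.0, strand by strand, and deposited TPM with 2 decimals; DESeq2 1.18.1 is named in the submitters' processing notes for counts that were not used here. TPM keep no depth, so precision comes from the spread between mice alone.

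Groups came from the sample labels. Each comparison was a two-sided limma fit (version 3.58.1, R 4.3.3, trend in eBayes) of log2(TPM + 1), a scale on which small values change less, over every gene averaging 1 TPM or more in its libraries, with Benjamini-Hochberg adjustment at 0.05 over all of them; only the 2 groups compared entered a fit. Both comparisons share the Myc_WT_ LZ libraries. Exact permutation tests (scipy 1.17.1) compared mean log2(TPM + 1) over all 70 or 35 groupings. Symbols and coordinates came from GENCODE M21, start regions from RefSeq. The fits were tried on simulated independent values with a large shift added to some genes. Pairing of mice, unequal scaling and smaller differences were not simulated.

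The genes described and the gene lists were chosen with earlier results of these data known. Named besides them are list genes past the threshold (1 is not reported here) and, for each gene, the most alike genes by Pearson's r at a mean of at least 5 TPM. The motifs were chosen after the data were seen. MBC and LZ libraries of mice 1, 3 and 4 are paired by the labels' mouse identifiers; the deviations of such pairs from their group means correlated with r = 0.00711, 0.0114 and -0.0463. Alternatives were a pseudocount of 0.1, no filter, median ratio scaling, removal of 356 ribosomal RNA genes, a replicate block for the mouse, a joint fit of the 3 groups, and each library left out. The count of other repair genes under these was added after seeing the data.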

Additional observations from a re-analysis of the deposited data

Results flagged for a closer look

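Of 16 groups of 4 libraries examined (8 genes in Myc_WT_ and in Myc_VD_ LZ B cells), 1 had a library far from the others: Supt5 in Myc_VD_ mouse 5 stood at 57.42 TPM, with 24.73 to 30.31 TPM in the other 3. The gap to the nearest library was just past the limit of Dixon's criterion, which flags about 1 in 20 groups by chance. Without this library the Supt5 difference from Myc_WT_ was -0.13 on the log2 scale.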

How the results depend on the processing

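The counts of genes called over the whole table depended on the setting. Between genotypes, 6 genes passed, against 0 with a pseudocount of 0.1, 0 with no filter, 0 with median ratio scaling, 1 without ribosomal RNA genes, 0 with all 3 groups in 1 fit, and 0 to 254 with libraries left out, the highest without Myc_VD_ mouse 5. Of the other repair genes 0 passed, and 0 to 2 with libraries left out, again the highest without Myc_VD_ mouse 5. Between MBCs and LZ B cells, 1219 genes passed, against 608 with no filter, 248 with the mouse as a replicate block, and 342 to 2754 with libraries left out (342 without LZ mouse 2, 2754 without MBC mouse 4). Of the other repair genes 11 passed, against 6 with no filter, 18 with all 3 groups in 1 fit, 4 with the replicate block, and 4 to 20 with libraries left out, the highest without MBC mouse 4. The 18 were 15 lower and 3 higher, where 7.71% of all genes were called lower. The 20 were 17 lower and 3 higher, where 14% of all genes were called lower.

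Of the 104 values of the 8 genes under alternatives between genotypes, 99 kept direction and side of the threshold and 5 reversed: Apex2 at 0.005 and Exo1 at 0.05 with median ratio scaling, Exo1 at 0.03 without ribosomal RNA genes, and Supt5, which ran from -0.13 to 0.27 with libraries left out (-0.03 without Myc_WT_ mouse 4). With libraries left out, differences between genotypes also moved by over 1.5 times for Apex1 (-0.34 without Myc_VD_ mouse 6), Apex2 (-0.53 without Myc_VD_ mouse 7, -0.16 without mouse 5), Exo1 (-0.56 without Myc_WT_ mouse 1, -0.01 without Myc_VD_ mouse 6), Polh (-0.56 without Myc_WT_ mouse 4, -0.17 without Myc_VD_ mouse 8) and Trp53bp1 (0.004 without Myc_VD_ mouse 7, 0.21 without mouse 6). Of the 104 between MBCs and LZ B cells, 86 kept both, 11 lost the call, 6 gained one and 1 reversed, Supt5, from -0.73 to 0.01 with libraries left out. Polh also lost its call with a pseudocount of 0.1 (adjusted p = 0.0629) and with no filter (adjusted p = 0.0875); Apex1 gained one with all 3 groups in 1 fit (adjusted p = 0.0444). The causes were not tested. Since depth is unknown, the counting error of low values such as 0.55 TPM of Polh and 0.77 TPM of Apex1 in the MBCs of mouse 3 cannot be given. That library had the fewest genes detected (11527).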
